A study of Saccharomyces cerevisiae with 18 samples.

Results

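Colonies of 2 yeast strains, KV68 and KV2668, were compared on solid medium. The 6 arrays were chosen by their titles, replicates 1 to 3 of each strain on solid medium, out of 18 arrays in the series. Both strains carry the labels wild type and Sigma1278b, the *Saccharomyces cerevisiae* background in which the study examined wrinkled colonies and the adhesin gene *FLO11*. All 6 samples were colonies grown for 5 days at 30°C on YPS, a medium of yeast extract, peptone and sucrose. The labels give no further alleles, no mating type and no ploidy for either strain, and do not say whether replicates were separate cultures, so the p-values measure a spread between arrays that may be technical. The other arrays hold KV63 and KV473 colonies, both labelled flo11, and KV2668 and KV473 in liquid medium, 3 of each.

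Haploid budding yeast comes in 2 mating types, a and alpha, set by the genes at the *MAT* locus on chromosome III. In alpha cells alpha1 switches on the alpha-specific genes and alpha2 switches off the a-specific ones, and in a/alpha diploids a1 and alpha2 together shut off haploid-specific genes such as those of pheromone signalling. Silent copies of the same cassettes lie at *HML* and *HMR*, kept off by the Sir proteins. Flo11 is a cell-surface glycoprotein known for its part in adhesion to surfaces, invasive growth and colony shape.

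The values are log2 expression values from RMA, a procedure that removes background, brings the arrays to a shared distribution and combines the probes of each set into a single value. The table holds 7686 probe sets, of which 5469 belong to single *S. cerevisiae* genes. On each array the 95th percentile of 676 probe sets of *S. pombe*, a yeast absent from these samples, served as background, and lay between 4.34 and 4.46 on the 6 arrays. Probe sets above it on at least 3 of the 18 arrays were tested, 5424 in all. Differences are KV68 minus KV2668, and were called where limma's adjusted p was under 0.05 and their size exceeded 1 on the log2 scale. KV68 replicate 3 stood apart from the other arrays of its strain. It correlated across probe sets at 0.9175 and 0.9087 with KV68 replicates 1 and 2, which correlated with each other at 0.9926, while KV68 and KV2668 arrays correlated at 0.9242 to 0.9546. It thus correlated with its own strain less well than the strains did with each other, and results are given with and without it. The fit took the spread of each probe set from all 18 arrays together. Where KV68 replicate 3 departs from its strain, the SE and p-value therefore understate the spread among KV68 arrays.

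*FLO11* RNA was near background in both strains, which goes against the label wild type. Its log2 value was 5.14, 4.65 and 4.78 on the KV68 arrays and 5.12, 5.43 and 4.78 on the KV2668 arrays. The groups overlapped, and the difference of −0.26 (SE 0.15, limma adjusted p = 0.181) did not pass. Without KV68 replicate 3 it was −0.22 (limma adjusted p = 0.258). Colonies of KV63 and KV473, labelled flo11, had means of 13.06 and 12.94. The comparison of KV68 with KV2668 is therefore one between strains without appreciable *FLO11* RNA, and KV68 replicate 3 does not differ from the rest in this gene.

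KV68 and KV2668 nevertheless differed at 283 probe sets, 5.22% of those tested. KV68 was higher at 82 of them (1.51%) and lower at 201 (3.71%). Of the lower ones 136 lie on chromosome XII, where 29.4% of 462 probe sets were lower and 0 were higher in KV68. Outside chromosome XII, 82 were higher and 65 lower among 4962, or 1.65% and 1.31%. With each chromosome centred on its own median, the counts were 71 higher and 83 lower. Without KV68 replicate 3 they were 132 higher (2.43%) and 257 lower (4.74%), and 58 of the higher and 165 of the lower ones were shared with the comparison of all 6 arrays. Across all tested probe sets, 2335 (43.0%) had KV68 arrays that did not overlap with KV2668 arrays. Over all tested probe sets 2705 (49.9%) had an unadjusted p under 0.05 (limma), against which such counts for single lists can be read. KV63 and KV473, the other pair of strains with a shared label, differed at 0 probe sets (limma, 80 at an unadjusted p under 0.05).

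The cassette genes of the *MAT* locus lay on opposite sides in the strains. *HMRA1*, the probe set of a1, had log2 values of 3.95, 3.59 and 3.26 in KV68 and 10.48, 10.95 and 10.47 in KV2668. All 3 KV68 arrays were not above background and all 3 KV2668 arrays were far above it. Against the background, KV68 was lower by at least 6.24 on the log2 scale, so a1 RNA was at least 75.6-fold higher in KV2668 (limma adjusted p = 2.45e-13). *HMLALPHA1*, the probe set of alpha1, read 10.43, 10.62 and 9.65 in KV68 and 4.33, 3.70 and 4.68 in KV2668, where only 1 of 3 arrays was above background. KV68 was higher by 6.0 (SE 0.24, limma adjusted p = 3.55e-10), or by 5.75 once readings below background were raised to it. *HMRA2*, whose probe set also matches alpha2 sequence, read 12.37, 12.45 and 12.13 in KV68 and 11.40, 11.27 and 11.12 in KV2668, and was higher by 1.05 (SE 0.11, limma adjusted p = 2.24e-06). *HMLALPHA1* and *HMRA2* may detect several genes, and none of these probe sets separates the copy at *MAT* from the silent ones. On all 3 cassette genes KV68 replicate 3 lay with replicates 1 and 2 and apart from KV2668.

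The genes that only a cells transcribe were lower in KV68, 6 of 7, with a median difference of −2.89 beside 0.02 over all tested probe sets. *AGA2*, the adhesion subunit of a-agglutinin, had log2 values of 5.74, 5.68 and 6.65 in KV68 and 10.37, 9.89 and 10.15 in KV2668. The strains lay far apart, by −4.11 (SE 0.32, limma adjusted p = 1.59e-07), and by −4.43 without KV68 replicate 3. The a-factor gene *MFA2* read 7.36, 6.86 and 11.27 in KV68 and 12.73, 12.03 and 12.34 in KV2668, a difference of −3.87 (SE 0.81, limma adjusted p = 0.0014). The second a-factor gene, *MFA1*, read 7.57, 7.25 and 10.09 in KV68 and averaged 11.82 ± 0.16 (SD, n = 3) in KV2668, a difference of −3.51 (SE 0.54, limma adjusted p = 1.16e-04). On both pheromone genes KV68 replicate 3 lay closer to KV2668 than to replicates 1 and 2, and without it the differences were −5.26 for *MFA2* and −4.41 for *MFA1*. *STE2*, the receptor for alpha-factor, read 6.33, 6.48 and 10.60 in KV68 and 10.87, 10.52 and 10.68 in KV2668. Here KV68 replicate 3 fell within the KV2668 arrays, so the groups overlapped, and the difference of −2.89 (limma adjusted p = 0.0102) was −4.28 without it. *BAR1*, the protease that degrades alpha-factor, differed by −2.49 with fully separate arrays, and by −3.06 without KV68 replicate 3. The a-factor exporter *STE6* differed by −1.31, and by −1.80 without that array. Fitted to the 6 arrays alone, *MFA2*, *STE2* and *STE6* did not pass (limma adjusted p = 0.0685, 0.135 and 0.08). *ASG7*, an a-specific gene that dampens pheromone signalling, read 5.67, 5.26 and 8.79 in KV68 and 7.72, 7.59 and 7.79 in KV2668. On this gene KV68 replicate 3 was the highest of the 6 arrays, and the difference of −1.13 did not pass (limma adjusted p = 0.159), while that without it did, at −2.23 (limma adjusted p = 9.5e-07).

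Of the 5 alpha-specific genes 4 were higher in KV68, with a median difference of 2.66, and all 5 without KV68 replicate 3, with a median of 3.88. The main alpha-factor gene *MF(ALPHA)1* had log2 values of 13.98, 14.0 and 12.11 in KV68 and 6.32, 6.03 and 6.54 in KV2668. No arrays overlapped, and KV68 was higher by 7.07 (SE 0.36, limma adjusted p = 6.12e-09). The minor alpha-factor gene *MF(ALPHA)2* read 13.39, 13.44 and 6.16 in KV68 and 5.61, 5.18 and 5.70 in KV2668. It differed by 5.50 (SE 1.26, limma adjusted p = 0.00272) and by 7.92 without KV68 replicate 3, which lay 0.67 above the KV2668 mean on this gene. *STE3*, the receptor for a-factor, read 11.12, 11.28 and 8.02 in KV68 and 7.72, 7.97 and 7.83 in KV2668. *SAG1*, alpha-agglutinin, read 12.79, 12.85 and 9.15 in KV68 and 8.87, 9.04 and 8.91 in KV2668. On both, KV68 replicates 1 and 2 stood far above and KV68 replicate 3 just above KV2668, with differences of 2.30 for *STE3* and 2.66 for *SAG1*, or 3.36 and 3.88 without that array. Fitted to the 6 arrays alone, *MF(ALPHA)2*, *STE3* and *SAG1* did not pass (limma adjusted p = 0.108, 0.121 and 0.12). *AFB1*, which encodes a barrier against a-factor and lies on chromosome XII, differed by 0.57 (limma adjusted p = 0.126) and, without KV68 replicate 3, by 1.09 (limma adjusted p = 3.73e-08). With each chromosome centred on its own median, it was higher by 1.46 with all arrays (limma adjusted p = 0.00115).

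**Figure D1:**
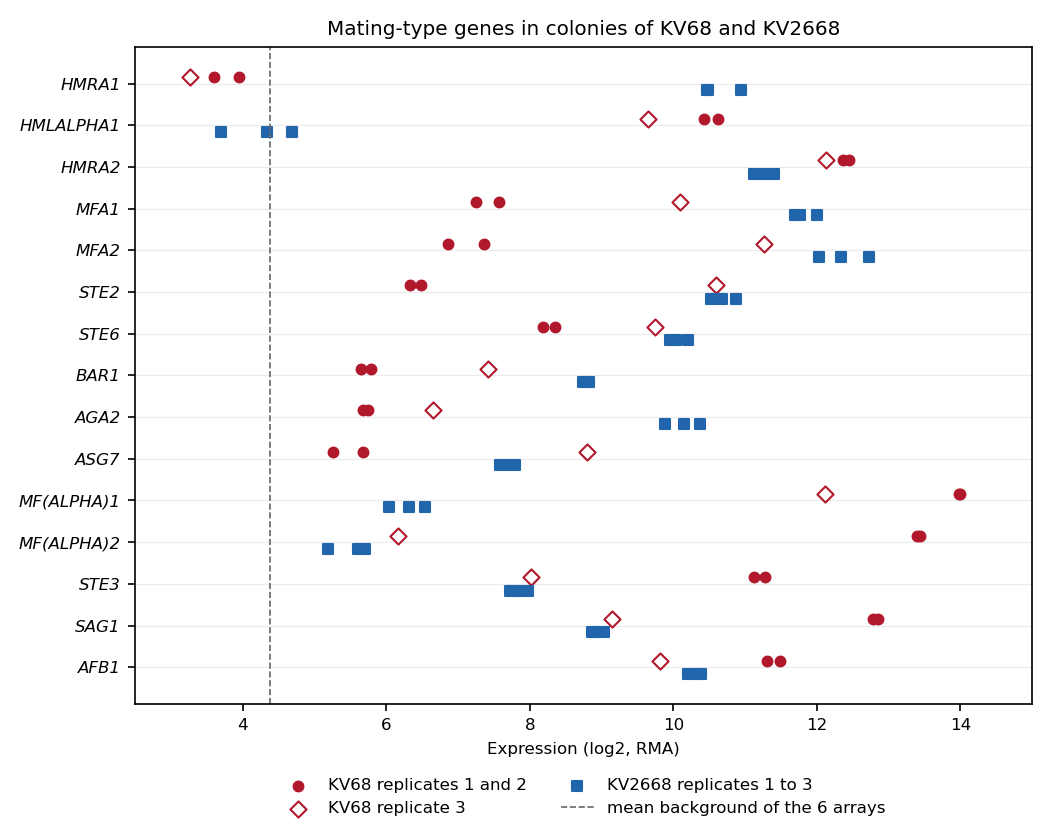
Log2 RMA expression of mating-locus, a-specific and alpha-specific genes (rows) on each array, with KV68 above KV2668 in each row, KV68 replicate 3 as an open diamond and the mean background as a dashed line. KV68 replicate 3 lies with replicates 1 and 2 on *HMRA1* and *HMLALPHA1*, near KV2668 on *STE2*, *STE3*, *SAG1* and *MF(ALPHA)2*, and between the strains on *MFA1* and *BAR1*.

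Averaged over each list, the a-specific genes stood at 6.64, 6.52 and 9.22 in KV68 and 10.39, 10.07 and 10.21 in KV2668. The alpha-specific genes averaged 12.52, 12.61 and 9.05 in KV68 and 7.78, 7.68 and 7.86 in KV2668. The a-specific minus the alpha-specific mean was thus −5.87 and −6.09 on KV68 replicates 1 and 2, 0.17 on KV68 replicate 3, and 2.35 to 2.61 on the KV2668 arrays. KV63 and KV473 colonies lay between −5.72 and −4.34, on the side of KV68 replicates 1 and 2. The alpha-specific mean of KV68 replicate 3 rested mainly on *MF(ALPHA)1*, which lay 5.82 above the KV2668 mean. *STE3*, *SAG1* and *MF(ALPHA)2* lay only 0.18, 0.22 and 0.67 above that mean, and *AFB1* differed from it by −0.49. On every array of the series both classes averaged above background, and 5385 of 5424 tested probe sets were above it on all 6 arrays. Lying above background thus does not set KV68 replicate 3 apart. Its difference of 0.17 lay between those of the other KV68 arrays and those of KV2668. The a1 RNA of that array was not above background. In RNA from whole colonies, fewer cells of a type and less RNA per cell cannot be told apart.

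Genes that both haploid types share were closer between the strains. None of 11 haploid-specific genes was called, and 6 of them had an unadjusted p under 0.05 (limma), near the 49.9% of all tested probe sets. *STE4*, the beta subunit of the pheromone G protein, read 11.81, 11.91 and 10.57 in KV68 and 10.70, 10.58 and 10.70 in KV2668, a difference of 0.77. *STE4* and *FAR1*, which arrests the cycle in response to pheromone, were higher by 1.20 and 1.38 without KV68 replicate 3, which lay at or below KV2668 on both. Of 22 pheromone-induced genes 5 were higher and 1 lower in KV68, beside 1.51% and 3.71% of all tested probe sets. *AGA1*, the anchor subunit of a-agglutinin, read 10.74, 10.70 and 9.36 in KV68 and 8.74, 8.45 and 8.60 in KV2668, and was higher by 1.67 (SE 0.26, limma adjusted p = 1.28e-04). *FUS1*, needed for cell fusion, read 9.35, 9.47 and 9.0 in KV68 and 7.95, 7.99 and 7.94 in KV2668, a difference of 1.31. Both genes had separate arrays in the 2 strains, as did 43.0% of all tested probe sets. *FIG1* and *PRM6* were higher by 1.5 and 1.49, and *PRM1* by 1.15, whereas *PRM5*, which also responds to cell-wall stress, was lower, at −1.24. Without KV68 replicate 3, *PRM1* and *PRM5* were no longer called, at 0.65 and −0.93. Of 13 kinases and regulators of the mating pathway 0 were called (limma, 6 at an unadjusted p under 0.05).

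RNA from chromosome XII was lower in KV68 along the whole chromosome. The chromosome level, the median of its probe sets minus that of all others relative to KV63 and KV473 colonies, was −0.014, −0.009 and −0.036 in KV68 and 0.838, 0.840 and 0.835 in KV2668. All KV68 arrays, replicate 3 included, lay at the level of KV63 and KV473 colonies, which ranged from −0.011 to 0.007. The strains differed by −0.857, or 1.81-fold higher in KV2668, with a two-sided exact permutation p of 0.1, the smallest that 3 against 3 arrays allow. KV2668 in liquid medium showed the same level, 0.824 to 0.850, and KV473 in liquid medium 0.014 to 0.034. On the other 15 chromosomes the median probe-set difference between the strains lay between 0.032 and 0.098, against −0.797 on chromosome XII, or −0.805 without KV68 replicate 3.

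**Figure D2:**
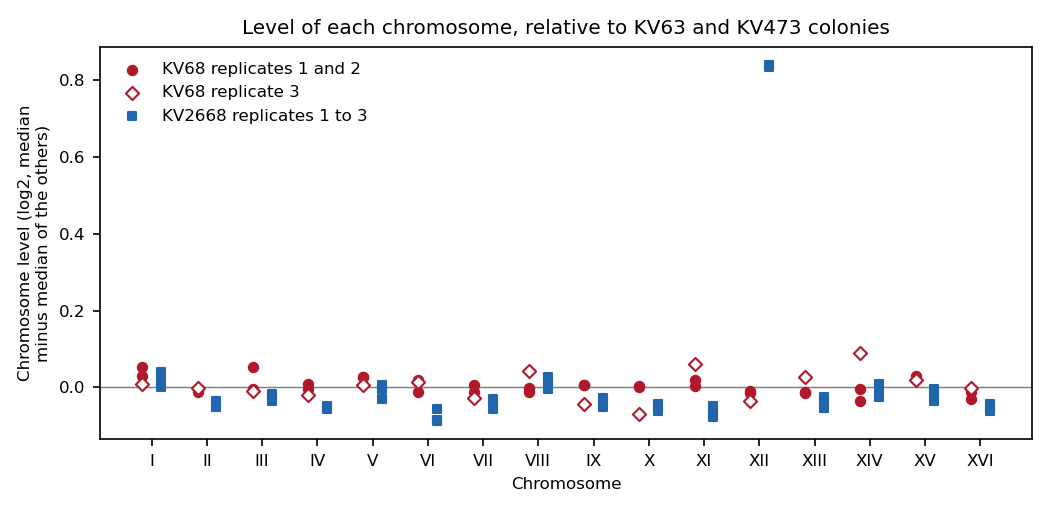
Level of each chromosome on the 6 arrays (log2, median of its probe sets minus the median of the others, relative to KV63 and KV473 colonies), with KV68 left of KV2668. Chromosome XII stands between 0.835 and 0.840 in KV2668 and between −0.036 and −0.009 in KV68, and on every other chromosome all 6 arrays lie near 0.

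Single genes of chromosome XII followed its level with some spread. Of 462 probe sets 444 had a negative difference, and the quartiles were −1.037 and −0.56. In order along the chromosome, a running median of 15 probe sets lay between −1.10 around *PET309* and −0.52 around *SFI1*, and for KV68 replicate 3 alone between −1.24 and −0.35. The first window, around *GTT2*, stood at −0.58 and the last, around *FMP27*, at −0.81, so that no stretch of the chromosome between them returned to 0. The outermost probe sets read −0.19 for *YLL066W-B* and 0.16 for *YLR462W*. Among the 18 probe sets above 0, 6 may detect several genes and 5 are of the *PAU* family, whose members resemble each other and lie near chromosome ends. The threshold of 1 on the log2 scale falls inside this spread, and 395 probe sets of the chromosome were lower at an adjusted p under 0.05 without it (limma).

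**Figure D3:**
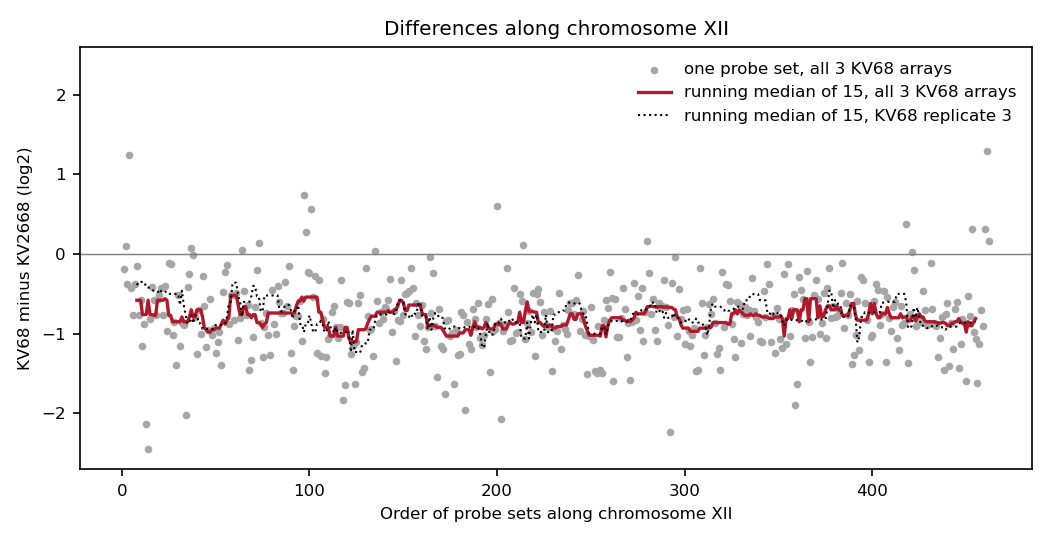
KV68 minus KV2668 (log2) for 462 probe sets in their order along chromosome XII, with the running median of 15 probe sets for all KV68 arrays (line) and for KV68 replicate 3 alone (dotted). Both running medians stay below 0 from the first window to the last, the line between −1.10 and −0.52.

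The largest differences on chromosome XII went beyond this shift. *AQY2*, an aquaporin gene, had log2 values of 7.85, 7.49 and 7.09 in KV68 and 9.72, 10.06 and 10.02 in KV2668, a difference of −2.45 (SE 0.18, limma adjusted p = 8.62e-08). *YLL053C*, the neighbouring reading frame that forms part of the same aquaporin gene in Sigma1278b, differed by −2.14. *BOP2*, of unknown function, read 9.43, 9.47 and 9.30 in KV68 and 11.34, 11.97 and 11.59 in KV2668, a difference of −2.24 (SE 0.13, limma adjusted p = 1.45e-08). These genes were low on every KV68 array and high on every KV2668 array, as the rule by which they were named required. Of all tested probe sets, 43.0% had arrays that did not overlap. *TPO1*, an exporter of polyamines, read 10.07, 9.46 and 10.16 in KV68 and 11.70, 12.02 and 12.03 in KV2668, a difference of −2.02. *TIS11*, which directs decay of mRNAs under iron shortage, read 8.71, 8.96 and 10.50 in KV68 and 10.94, 11.65 and 11.45 in KV2668. It differed by −1.96 and, without KV68 replicate 3, by −2.51. *SHH4*, a relative of a succinate dehydrogenase anchor subunit, differed by −2.07. *SIR3*, a silencing protein of the *HM* loci that lies on chromosome XII, read 7.27, 7.09 and 7.74 in KV68 and 8.61, 8.93 and 8.86 in KV2668. Its difference of −1.43 (SE 0.13, limma adjusted p = 6.81e-07) lay nearer the chromosome median of −0.797 than those of the genes above. It was the lone call among 17 silencing genes, on a chromosome where 29.4% of probe sets were lower. *RIF2* of the same chromosome, at −0.98 with all arrays, joined it at −1.05 without KV68 replicate 3. With each chromosome centred, 7 probe sets of chromosome XII were lower and 13 higher in KV68.

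Where KV68 replicate 3 fell depended on the genes. It was placed on a scale from 0, the mean of KV68 replicates 1 and 2, to 1, the mean of KV2668, at the 389 probe sets called without it. As these were chosen on replicates 1 and 2, the choice itself can place KV68 replicate 3 nearer KV2668. On chromosome XII its median position was 0.25, and 47 of 155 probe sets (30.3%) lay nearer KV2668. On the other chromosomes it was 0.80, and 168 of 234 (71.8%) lay nearer KV2668, with 90 beyond it. Colonies of KV63 and KV473, which these probe sets were not chosen on, lay nearer KV68 replicates 1 and 2 at 349 of 389 (89.7%). The array thus had the chromosome XII level and cassette RNAs of KV68, and, at most other called genes, values nearer to KV2668 or past it. Which property of that sample this comes from was not tested.

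**Figure D4:**
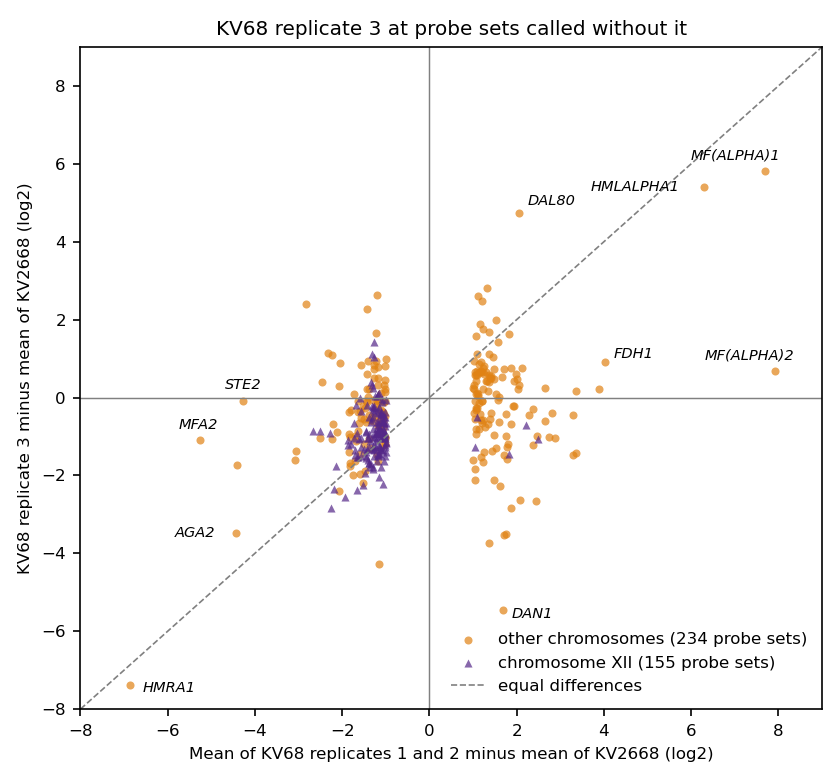
For the 389 probe sets called without KV68 replicate 3, that array minus the KV2668 mean (vertical, log2) against the mean of KV68 replicates 1 and 2 minus the KV2668 mean (horizontal, log2). Most probe sets of chromosome XII (triangles) lie nearer the line of equal differences, but shifted from it towards KV2668, with 44 of 155 on its far side. Most of the 234 others (circles) lie nearer the horizontal line at 0 or across it.

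Genes of the use of poor nitrogen sources, a list drawn up after the values were seen, were higher in KV68 at 11 of 23. Their median was 1.19, and 1.51% of all tested probe sets were higher. *DAL80*, a repressor of nitrogen genes, had log2 values of 7.59, 8.05 and 10.52 in KV68 and 5.74, 5.74 and 5.84 in KV2668. All KV68 arrays lay above KV2668, by 2.95 (SE 0.49, limma adjusted p = 2.36e-04), and by 2.05 without KV68 replicate 3. *MEP2*, a high-affinity ammonium permease, read 10.66, 10.36 and 14.02 in KV68 and 9.67, 10.19 and 10.11 in KV2668. Its call (1.69, limma adjusted p = 0.0425) was carried by KV68 replicate 3, without which the difference was 0.52. The peptide transporter gene *PTR2* read 11.51, 11.15 and 12.60 in KV68 and 9.68, 10.44 and 10.24 in KV2668, a difference of 1.63, or 1.21 without that array. *OPT1*, which takes up oligopeptides and glutathione, and the ammonium permease gene *MEP1* differed by 1.81 and 1.62, and by 1.31 and 1.12 without it. Genes of allantoin use, *DAL3*, *DAL5* and *DAL7*, differed by 2.00, 1.44 and 1.46, and by 0.86, 0.61 and 0.65 without KV68 replicate 3, so none of them stayed called. That array was the highest of the 6 at 22 of 23 probe sets of the list (95.7%), with 33.6% over all tested ones. As the genes were listed with these values known, that share describes the list and tests nothing. Without that array 4 genes were higher and 1, the arginase gene *CAR1*, was lower, and the list median was 0.37. Among 26 amino acid and peptide permeases, 6 were higher in KV68, all 6 of them also in the nitrogen list. Without KV68 replicate 3, 3 were higher and 1, on chromosome XII, was lower, beside 2.43% and 4.74% of all tested probe sets.

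Anaerobic mannoprotein and seripauperin genes moved the other way on that array. These encode small or wall-bound proteins made when oxygen or heme is scarce. Of 12 probe sets, 2 were higher in KV68, both of *PAU5*, with a list median of 0.95. Without KV68 replicate 3, 10 were higher, with a median of 2.12. Over all tested probe sets the shares were 1.51% and 2.43%. *PAU5* read 13.96, 14.13 and 10.83 in KV68 and 11.68, 10.86 and 11.15 in KV2668 on the probe set that detects it alone. *DAN1* read 13.42, 13.72 and 6.42 in KV68 and 12.28, 11.52 and 11.86 in KV2668, and *TIR4* 14.02, 14.13 and 8.81 in KV68 and 12.63, 12.02 and 12.30 in KV2668. KV68 replicate 3 was the lowest of the 6 arrays at all 12 probe sets of the list, against 28.1% of all tested ones. Without it *DAN1* differed by 1.69 and *TIR4* by 1.76, and with it by −0.70 and 0.00. *UPC2*, an activator of sterol uptake and of anaerobic wall genes, read 11.57, 11.69 and 10.24 in KV68 and 9.76, 9.52 and 9.65 in KV2668, and was higher by 1.52 (SE 0.27, limma adjusted p = 3.46e-04). *ROX1*, the repressor of hypoxic genes, read 10.79, 9.55 and 10.01 in KV68 and 10.88, 11.41 and 11.30 in KV2668, a difference of −1.08 (SE 0.22, limma adjusted p = 0.00102). On both regulators the arrays of the strains did not overlap, as at 43.0% of all tested probe sets. They were the only calls among 11 hypoxic and heme-regulated genes, whose median was 0.23, and the other 9 were not called. Without KV68 replicate 3 that list held 3 higher and 1 lower. The sterol importer genes *AUS1* and *PDR11* were higher by 1.13 and 1.71 without KV68 replicate 3, and 0 of 25 sterol genes were called with it (limma, 9 at an unadjusted p under 0.05).

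Ester and formate genes, also grouped after the values were seen, were higher in KV68 at 5 of 7, with and without KV68 replicate 3. Over all tested probe sets the shares were 1.51% and 2.43%. *FDH1*, formate dehydrogenase, had log2 values of 12.75, 12.59 and 9.56 in KV68 and 8.54, 8.59 and 8.80 in KV2668, and was higher by 2.99 (SE 0.58, limma adjusted p = 7.82e-04), or by 4.03 without that array. Fitted to the 6 arrays alone, *FDH1* did not pass (limma adjusted p = 0.0615). *ATF2*, an alcohol acetyltransferase that makes acetate esters, read 7.74, 8.15 and 7.75 in KV68 and 6.17, 6.08 and 6.14 in KV2668, a difference of 1.75 (SE 0.14, limma adjusted p = 1.89e-07). On *ATF2* all 3 KV68 arrays were alike and above KV2668. *ARE1*, which esterifies sterols, read 10.61, 10.80 and 10.48 in KV68 and 9.40, 9.30 and 9.33 in KV2668, a difference of 1.29. *EEB1*, which makes ethyl esters, and *ATF1* were higher by 1.39 and 1.02.

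Of 20 probe sets for sugar uptake and sucrose hydrolysis 2 were higher in KV68, both of *HXT13*, and 4 were lower, with a list median of 0.00. Over all tested probe sets 1.51% were higher and 3.71% lower. *HXT13*, a transporter of the hexose family, had log2 values of 6.51, 5.86 and 6.65 in KV68 and 4.70, 4.59 and 4.71 in KV2668 on the probe set that detects it alone. It was higher by 1.67 (SE 0.19, limma adjusted p = 7.94e-06). *SUC2*, the invertase that splits the sucrose of this medium, read 10.14, 10.21 and 10.63 in KV68 and 11.26, 11.41 and 11.36 in KV2668, a difference of −1.02 (SE 0.10, limma adjusted p = 1.79e-06). Neither gene overlapped between the strains, as was so for 43.0% of all tested probe sets. The glucose transporter gene *HXT2* read 10.19, 9.51 and 12.22 in KV68 and 11.48, 12.26 and 12.01 in KV2668, and *HXT4* read 8.38, 7.94 and 9.99 in KV68 and 9.74, 9.97 and 9.95 in KV2668. On both, KV68 replicate 3 fell among or above the KV2668 arrays, and the differences of −1.28 and −1.12 were −2.07 and −1.73 without it. *HXT8* differed by −1.2, and by −0.91 without that array, when it was no longer called. The list held 4 higher and 3 lower probe sets without KV68 replicate 3, as *HXT14* and *HXT15* were then higher by 1.03 and 1.04.

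Cell-wall genes were lower in KV68 at 7 of 29, and at 4 without KV68 replicate 3, and none was higher in either case. Their median was −0.41, and 3.71% of all tested probe sets and 29.4% of those on chromosome XII were lower. Of these, *CTS1*, *EXG1* and *CCW14* lie on chromosome XII, where their differences of −1.47, −1.45 and −1.35 stood below its median of −0.797. Without KV68 replicate 3 they were −0.82, −1.06 and −1.21 beside a median of −0.805, so that *CTS1* lay near it. *DSE1*, expressed in daughter cells as they separate from their mothers, had log2 values of 7.30, 7.29 and 6.90 in KV68 and 8.55, 8.98 and 8.81 in KV2668, a difference of −1.61 (SE 0.14, limma adjusted p = 5.44e-07). *DSE2*, a glucanase-like protein of daughter cells, read 6.39, 6.37 and 6.46 in KV68 and 7.59, 7.84 and 7.83 in KV2668, a difference of −1.35 (SE 0.12, limma adjusted p = 5.4e-07). *DSE4*, a glucanase that opens the septum from the daughter side, differed by −1.07. These genes were lower on all KV68 arrays, replicate 3 included. Of 12 genes of daughter cell separation, listed after the values were seen, 4 were lower, and 2 without KV68 replicate 3, when *CTS1* and *DSE4* fell short at −0.82 and −0.94. *PIR1*, a wall protein, differed by −1.07, and by −0.83 without that array.

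**Figure D5:**
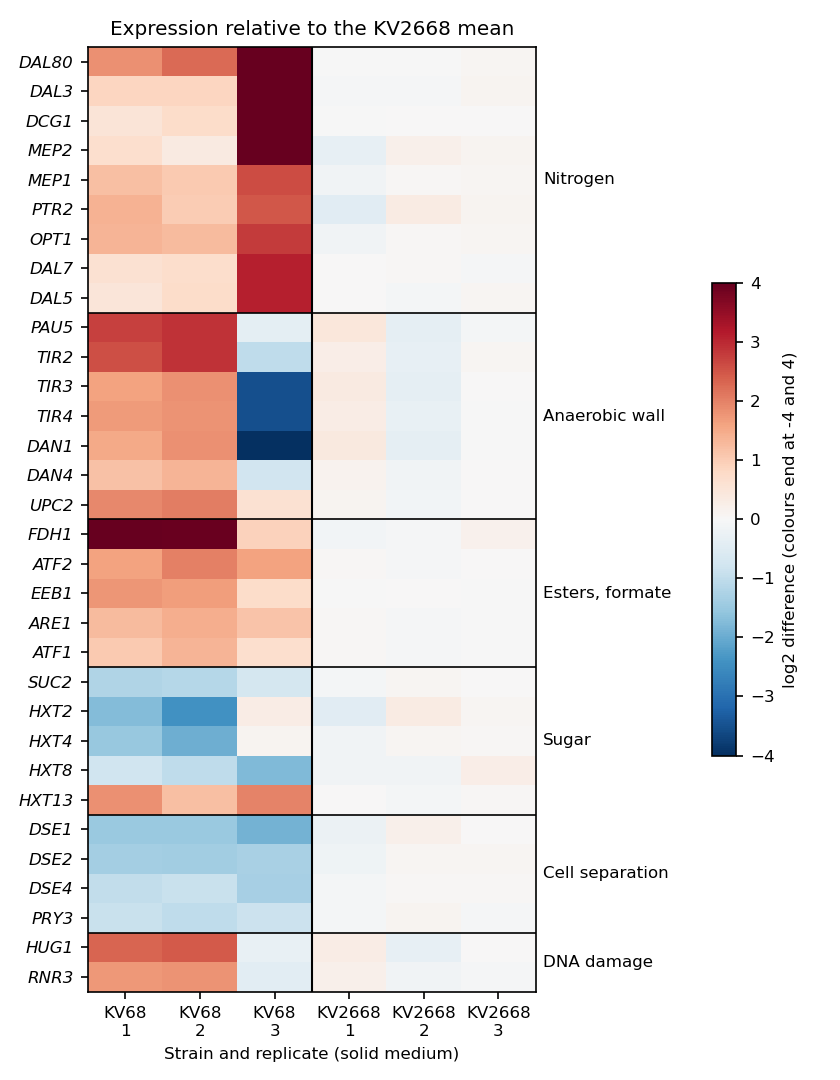
Log2 value on each array minus the KV2668 mean of the same gene, for 32 genes of 6 groups (rows), with KV68 replicates to the left of KV2668 replicates. KV68 replicate 3 is the highest KV68 array for the nitrogen genes shown, the lowest for the anaerobic ones, and close to replicates 1 and 2 for *ATF2*, *ARE1* and *DSE2*.

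Among the other strongly changed genes, *YNL234W*, which encodes a globin-like heme protein, had log2 values of 6.06, 5.68 and 7.34 in KV68 and 9.0, 8.85 and 8.99 in KV2668, a difference of −2.59 (SE 0.31, limma adjusted p = 9.77e-06). *MGA1*, a relative of heat shock factor that was the lone call with all arrays among 20 regulators of *FLO11*, read 7.60, 6.41 and 6.69 in KV68 and 8.80, 9.25 and 9.21 in KV2668, a difference of −2.19 (SE 0.26, limma adjusted p = 9.12e-06). *PHO84*, the high-affinity phosphate transporter, read 10.45, 10.37 and 7.30 in KV68 and 11.06, 11.99 and 11.66 in KV2668. The *FLO11* repressor gene *NRG2* was called as well once KV68 replicate 3 was left out, at 1.49. *YNL234W*, *MGA1* and *PHO84* had separate arrays, as the rule for naming the largest differences required. Of all tested probe sets 43.0% had them too. For *PHO84* the difference of −2.20 was −1.16 without KV68 replicate 3, and with the 6 arrays alone it did not pass (limma adjusted p = 0.138). *HUG1*, an inhibitor of ribonucleotide reductase induced by DNA damage, read 13.46, 13.59 and 10.85 in KV68 and 11.45, 10.81 and 11.16 in KV2668, so that its arrays overlapped. It differed by 1.49, and by 2.38 without that array, and *RNR3*, a subunit of the reductase, by 1.03 and 1.76. These were the 2 calls among 9 DNA-damage and ribonucleotide reductase genes, a list made after the values were seen. Of 12 probe sets for polyamine and drug efflux, listed in the same way, *YHK8* was higher by 1.22, and *TPO1* and *TPO2* were lower, the second at −1.5. The counts were 3 higher and 2 lower without KV68 replicate 3. The meiotic genes *SPO11* and *ZIP1*, of break formation and of the synaptonemal complex, were higher by 1.47 and 1.12 and were the 2 calls among 25 genes of meiosis and sporulation. Both were also called without KV68 replicate 3, when *IME1*, the inducer of meiosis, and *SPS100*, of spore wall maturation, were lower at −1.16 and −2.05. *SSA3*, a stress-induced Hsp70, differed by −1.18, the lone call among 22 heat shock and stress genes. There were 3 lower calls without KV68 replicate 3, the others being the catalase gene *CTT1* at −1.29 and the Hsp70 gene *SSA2*, on chromosome XII, at −1.30. With all arrays 5.22% of all tested probe sets were called. The few calls among *FLO11* regulators, meiosis genes and stress genes lie near that share.

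Among genes of metals, thiamine, sulfur and serine, calls with all arrays were made at 1 to 3 genes of each list, beside 5.22% of all tested probe sets. Of 33 iron and copper genes 2 were lower in KV68, *TIS11* and the siderophore transporter gene *ARN2* (−1.11), and 7 without KV68 replicate 3, 3 of them on chromosome XII. Of 13 zinc-responsive genes *ZRT1*, a zinc transporter, was higher by 1.15 in KV68, with 10.79, 9.52 and 11.63 in KV68 and 9.96, 9.30 and 9.22 in KV2668. These arrays overlapped, and without KV68 replicate 3 the difference of 0.66 did not pass (limma adjusted p = 0.0549). *IZH2*, a membrane receptor of zinc metabolism, averaged 13.1 on KV68 replicates 1 and 2 and read 9.64 on KV68 replicate 3, and 10.84, 10.43 and 10.62 on the KV2668 arrays. It was not called with all arrays (1.32, limma adjusted p = 0.101) and was called without KV68 replicate 3, at 2.47, as was the zinc transporter gene *ZRT2* of chromosome XII, at −1.30. *THI22* was higher by 1.12, the lone call among 15 thiamine genes, and was joined without KV68 replicate 3 by *SNZ1*, lower at −1.23. In sulfur metabolism the sulfate permease gene *SUL2* and the S-adenosylmethionine synthetase gene *SAM1*, both on chromosome XII, differed by −1.34 and −1.07, and *MET2*, of homoserine acetylation, by 1.33, or 0.51 without KV68 replicate 3. The 19 genes of this list then held 0 higher and 3 lower calls, the added one being *MET17* of chromosome XII, at −1.18. *SER3*, the first enzyme of serine synthesis, was higher by 1.10 among 16 glycine, serine and 1-carbon genes.

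No calls were made, with or without KV68 replicate 3, among 16 genes of glycolysis, 17 of the citric acid cycle, 23 of the respiratory chain and 17 of ATP synthase. Of these 4, 11, 9 and 12 had an unadjusted p under 0.05 (limma), beside 49.9% of all tested probe sets. Their median differences were −0.09, 0.23, 0.10 and 0.16. Of 14 genes of ethanol and acetate fermentation and 13 of the glyoxylate cycle and gluconeogenesis 0 were called with all arrays (limma, 6 of each at an unadjusted p under 0.05). Each list held 1 lower call without KV68 replicate 3, the aldehyde dehydrogenase gene *ALD3* at −1.44 and *SIP4*, an activator of gluconeogenic genes, at −1.4. Of 17 trehalose and glycogen genes and 16 cyclins and cell-cycle genes 0 were called (limma, 7 and 8 at an unadjusted p under 0.05). KV68 replicate 3 was the lowest of the 6 arrays at 14 of 16 glycolytic genes, against 28.1% of all tested probe sets. The mean of these genes was 13.19, 13.27 and 12.81 in KV68 and 13.26, 13.20 and 13.23 in KV2668. It was also the lowest at 76.0% of sterol genes and 57.1% of ethanol and acetate fermentation genes.

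The difference between KV68 and KV2668 was set against that between KV63 and KV473 colonies, the other pair under a shared label, as an interaction in the same fit. KV68 minus KV2668 exceeded KV63 minus KV473 at 56 probe sets (1.03%) and fell short of it at 194 (3.58%), of which 129 lie on chromosome XII. Together these were 4.61% of the tested probe sets. *MF(ALPHA)1* differed between the pairs by 7.08 (SE 0.50, limma adjusted p = 9.84e-07), *AGA2* by −4.02 (limma adjusted p = 1.8e-05) and *FDH1* by 2.79 (limma adjusted p = 0.0217). For *STE2* the test did not pass with all arrays (−3.02, limma adjusted p = 0.068). In KV63 and KV473 colonies the means of *FDH1* were 10.90 and 10.70, between those of KV68 and KV2668, while *ATF2* had 7.17 and 7.08 and *DSE1* 7.07 and 7.01. *DAL80* had means of 7.83 in KV63 and 7.98 in KV473, near KV68 replicates 1 and 2. Without KV68 replicate 3 the counts were 129 and 251.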

How the data were processed

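Total RNA was hybridised to Affymetrix yeast arrays. The values are on the log2 scale as deposited, from RMA, which the submitters' processing notes name (version not given in the sources used here), and were not normalized further. In the table, 0 columns were left without a sample. Of 7686 probe sets 6145 had 1 gene symbol in the platform annotation, 1 had several and 1540 had none, and 12 symbols, the chromosomes and the gene order came from RefSeq. Probe sets of single *S. cerevisiae* genes above background on at least 3 arrays were tested, 115 of which may detect several genes. Precision is limited by how few arrays each group has.

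Differences came from limma 3.58.1 (lmFit, eBayes; R 4.3.3), fitted to all 18 arrays in 6 groups of strain and medium with 12 residual degrees of freedom, and Benjamini-Hochberg adjustment over 5424 probe sets. The script was tested on simulated data. The exact permutation test used scipy 1.17.1. Members and lists were chosen with earlier results of these data known. Named were *FLO11*, mating-type genes, the 4 largest called differences of each list (or the largest where none was called), and, in each direction, the 12 genes that differed most among those called with and without KV68 replicate 3 whose arrays were separate. For those 12 in each direction, separate arrays were a condition of the choice. Further genes were chosen after their values were seen, as were the lists of nitrogen, ester, daughter-cell, DNA-damage and efflux genes. The labels do not say whether replicate numbers pair the strains, and the main fit did not pair them. Alternatives changed arrays, filter, centring, normalization, weights and floor.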

Additional observations from a re-analysis of the deposited data

Results flagged for a closer look

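The test of the difference between the strain pairs, KV68 minus KV2668 against KV63 minus KV473 on solid medium, called 56 probe sets higher and 194 lower (limma, Benjamini-Hochberg). These were 250 of 5424 probe sets. The pairs share no strain, and KV63 and KV473 themselves differed at 0 probe sets. Of the calls, 47 of the higher and 169 of the lower ones were also called between KV68 and KV2668, so the test largely repeats that comparison. Without KV68 replicate 3 the counts were 129 and 251.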

How the results depend on the processing

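Of the 31 genes followed through the alternatives, only *FLO11*, never called, changed sign, to 0.21 with array weights. The chromosome XII level kept its direction. Leaving out single arrays moved the higher calls from 82 to between 66 and 132 and the lower ones from 201 to between 175 and 257, the highest counts in both directions coming without KV68 replicate 3. The chromosome XII level then ranged from −0.863 to −0.849 (−0.871 with all arrays but without multi-gene probe sets), and the calls that differed between strain pairs from 45 to 129 higher and 171 to 251 lower, again highest without that array. With the 6 arrays alone 39 were higher, and 132 with these arrays less KV68 replicate 3. Array weights, in which KV68 replicate 3 had a weight of 0.0347, gave 136 higher, and 148 without that array. Centring each chromosome gave 71 higher and 83 lower, and 134 and 122 without KV68 replicate 3, since it removes the shift of chromosome XII. Without a limit on size 1150 were higher and 1162 lower. Settings without KV68 replicate 3 in a smaller, centred or weighted fit were added after the data were seen. The other settings stayed within 1.5 times of these counts. Same-numbered arrays of the strains had correlated deviations of 0.17, −0.30 and 0.12, within the −0.34 to 0.42 of differently numbered ones. With 3 arrays per strain, among them KV68 replicate 3, this cannot show whether same-numbered arrays shared a plate or batch. The replicate block on 12 solid arrays gave 72 higher and 199 lower. Of 494 alternatives for these 31 genes, 479 kept their call, 11 lost it, 8 of these with the 6 arrays alone, and 4 gained it, for *ASG7* and *AFB1*. Losses were of *FDH1*, *HMRA2*, *MF(ALPHA)2*, *MFA2*, *PHO84*, *SAG1*, *STE2*, *STE3* and *STE6*. Low signal limits *FLO11* and the a1 and alpha1 probe sets, which have only a bound on one side or values near background.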

Other observations

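Among probe sets with no gene symbol, 331 were above background on at least 3 arrays. Of these, 4 were higher and 8 lower in KV68 by more than 1 on the log2 scale with separate arrays, between −1.62 and 1.30.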
